A study of Rattus norvegicus with 4 samples.

Results

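The 4 pyruvate dehydrogenase kinase genes (Pdk1, Pdk2, Pdk3 and Pdk4) and the 3 genes of the opposing phosphatases (Pdp1, Pdp2 and the regulatory subunit gene Pdpr) were followed in cultured neonatal rat cardiomyocytes. The members were the rows carrying these 7 gene symbols, out of 16290 genes in the table, and each symbol had 1 row. The cells were heart muscle cells of Rattus norvegicus at developmental stage P3, cultured in medium with horse serum. They had received an adenovirus vector encoding either mock (2 libraries, Mock 1 and Mock 2) or Pdk3 (2 libraries, Pdk3 1 and Pdk3 2). Both groups were therefore exposed to a vector. The species of the encoded Pdk3, the promoter that drives it and the time of harvest are not stated in any source at hand. Nor do the labels say whether replicate libraries stem from separate cultures or litters, and p-values therefore reflect just the scatter among these 4 libraries, possibly technical.

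The pyruvate dehydrogenase complex converts pyruvate to acetyl-CoA in the mitochondrial matrix and thereby commits carbon from glucose to the citric acid cycle. Kinases of the PDK family phosphorylate its E1 alpha subunit and switch the complex off, and the PDP phosphatases remove the phosphate and switch it on again. In heart muscle, PDK2 and PDK4 are the isoforms most often studied, and Pdk4 transcription is known to rise in fasting, when fatty acids are the main fuel.

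Pdk3 was 2.96-fold higher in the libraries that received it, Pdk4 was lower, and Pdk1 and Pdk2 were close to their Mock values. Summed over the kinases other than Pdk3, the normalised count in the Pdk3 libraries was 0.876 of that in Mock. Among the phosphatase genes Pdp2 passed as higher by a small margin in limma, a call lost when p was floored at counting noise (adjusted p = 0.0616), and Pdp1 and Pdpr did not pass the test. The comparison asks how the expression of the other enzymes that set the activity of the complex differs when one of its kinases is supplied from a vector.

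The promoters of Pdk3 and Pdk4 are shown because the counts of these kinase genes passed in limma. Counts of Pdk3 include reads from the vector, so whether the cells' own Pdk3 promoter responded cannot be read from them. Both promoters are RefSeq windows of 300 bases on build GRCr8, written on the gene's strand. Each runs from 250 bases before the annotated start of the cells' own gene to 50 after it. The Pdk3 window lies on the minus strand at chrX:62547322-62547621 and the Pdk4 window on the minus strand at chr4:34568280-34568579. Capitals mark matches, on either strand, to a CCAAT box (CCAAT), a GC box (GGGCGG), a hypoxia response core (ACGTG), a nuclear receptor hexamer (AGGTCA) or a FoxO element (GTAAACA).
Pdk3: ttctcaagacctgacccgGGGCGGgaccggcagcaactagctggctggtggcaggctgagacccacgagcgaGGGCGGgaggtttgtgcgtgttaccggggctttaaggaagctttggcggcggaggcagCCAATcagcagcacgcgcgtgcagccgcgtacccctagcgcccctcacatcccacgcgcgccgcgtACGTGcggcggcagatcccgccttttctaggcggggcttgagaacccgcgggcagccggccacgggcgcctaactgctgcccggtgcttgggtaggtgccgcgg
Pdk4: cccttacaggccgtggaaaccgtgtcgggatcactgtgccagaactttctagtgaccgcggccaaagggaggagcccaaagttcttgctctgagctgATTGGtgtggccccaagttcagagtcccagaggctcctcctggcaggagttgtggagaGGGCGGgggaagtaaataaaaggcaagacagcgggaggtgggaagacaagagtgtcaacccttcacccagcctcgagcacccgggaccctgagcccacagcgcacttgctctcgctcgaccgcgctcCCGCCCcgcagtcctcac
Both windows held 1 CCAAT box and 2 GC boxes. The hypoxia response core occurred once in the Pdk3 window and 0 times in the Pdk4 window, and it also occurred in those of Pdk1 and Pdk2. The nuclear receptor hexamer and the FoxO element had 0 matches in either window. No match overlapped another in these windows. Over all 33469 promoter windows, 37.5% held the CCAAT box, 33.1% the GC box, 19.3% the hypoxia core, 16.2% the hexamer and 3.78% the FoxO element. A window was found for 5 of the 7 members. These matches describe the letters in the windows and are no evidence of binding.

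The deposited unit is the normalised count, a read count per gene scaled between libraries by the authors and then rounded. They summed to between 4448199 and 4476649 per library, and multiplied back they correspond to about 4139585 to 4706346 reads in genes. The libraries of a pair differed by less than counting noise allows, with a chi-square per gene of 0.553 for Mock and 0.547 for Pdk3 where 1 is expected from counting alone (10583 genes with a mean of at least 50). No group has another pair to set beside this, so each library was kept as a sample, and whether the libraries of a pair are independent was not tested. For this reason calls of the members are given with limma's adjusted p and again with p floored at counting noise. The floor takes whichever is larger, limma's p or an exact binomial p from summed reads. Its binomial test treats the reads of a pair as independent, so the floor does not cover libraries that are not independent. For other genes an adjusted p is limma's unless marked as floored. Of 11 measured cardiomyocyte markers 0 were at 0, and their summed normalised count was 23378 to 23655 in the Mock libraries and 24136 to 24517 in the Pdk3 libraries.

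Over the 12838 genes with enough reads to test, 22.9% passed the threshold (limma, adjusted p under 0.05), 11.7% as higher and 11.3% as lower. All 7 members were tested and 3 of them passed, with Pdk3 and Pdp2 higher and Pdk4 lower. Pdk3 was supplied by the vector, so its call was set by the design. Its part in each count and in the median of the 7 is no result about the other members. Floored at counting noise, 15.8% of all genes passed (8.38% as higher and 7.44% as lower), and among the members Pdk3 as higher and Pdk4 as lower. The groups did not overlap for 5 of the 7 members, against 61.0% of all genes tested (29.9% with Pdk3 higher and 31.1% with Pdk3 lower). The median log2 fold change of the 7 was -0.06, beside -0.01 over all genes. The split of calls depended on scaling: when the median ribosomal protein gene was held equal across libraries, 7.21% of all genes passed as higher and 27.6% as lower, and counts of called genes under that scaling are to be read against these shares.

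Pdk3 (ENSRNOG00000012513, rn6 chromosome X, 62836131 to 62903554, minus strand) is the targeted gene and checks the labels. It was counted at 396 in Mock 1, 411 in Mock 2, 1218 in Pdk3 1 and 1177 in Pdk3 2. Both libraries labelled Pdk3 lay far above both Mock libraries. The mean was 403.5 ± 10.6 and 1197.5 ± 29.0 (SD, n = 2 each), and the log2 fold change was 1.57 ± 0.03 (SE, limma adjusted p = 1.47e-06, with or without the floor). In the order of log2 fold changes, Pdk3 stood 43rd from the top of the 12838 genes. Reads from the vector and from the cells' own Pdk3 gene are counted together in these values, so a change of the cells' own transcript cannot be told apart from the vector's. How much of the encoded sequence the counted exons cover is not known, so the rise of Pdk3 protein cannot be read from the fold change.

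The genes next to Pdk3 on the X chromosome did not all move alike, and a shift of the neighbourhood was not tested. Within 500 kb, Zfx, a zinc finger transcription factor gene, had 728 and 771 in Mock against 738 and 726 with Pdk3 (log2 fold change -0.03, adjusted p = 0.535 by limma). Eif2s3, a subunit gene of translation initiation factor eIF2, differed by 0.04 on the log2 scale (adjusted p = 0.341). Pcyt1b, on the opposite strand and the nearest named gene, had only 11 and 17 against 19 and 23, which did not pass (adjusted p = 0.185). Neither did Klhl15, a ubiquitin ligase adaptor gene, with 22 and 33 against 23 and 33 (adjusted p = 0.948). The neighbour that passed was Pola1, the catalytic subunit gene of DNA polymerase alpha, with 239 and 243 in Mock and 454 and 444 with Pdk3 (0.89 ± 0.04 on the log2 scale, limma adjusted p = 2.24e-05). Pola1 and Pcyt1b lie at lower coordinates than Pdk3, and Zfx, Eif2s3 and Klhl15 at higher ones.

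Pdk4 (ENSRNOG00000009565, rn6 chromosome 4, 30546664 to 30556814, minus strand) encodes the kinase isoform induced by fasting and fatty acids. Its normalised counts were 360 in both Mock libraries, 257 in Pdk3 1 and 246 in Pdk3 2. The groups were 103 normalised counts apart, several times the gap within either pair. The mean fell from 360.0 ± 0.0 to 251.5 ± 7.8 (SD, n = 2 each), and so fell by 30.1%. The log2 fold change was -0.52 ± 0.05 (limma adjusted p = 0.000361, unchanged by the floor), with a counting interval of -0.68 to -0.35 (95%, exact Clopper-Pearson on summed reads, covering counting error only). A larger absolute log2 fold change was found in 8.37% of the genes tested.

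Pdk1 (ENSRNOG00000001517, rn6 chromosome 3, 58530870 to 58558027) encodes an isoform known as a target of the hypoxia factor HIF-1. Mock 1 and Mock 2 had 384 and 415 normalised counts of it, and Pdk3 1 and Pdk3 2 had 382 and 373. The groups were apart by 2 normalised counts, less than the gap within either pair. The log2 fold change was -0.08 ± 0.05 (limma adjusted p = 0.282), and the counting interval ran from -0.23 to 0.06.

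Pdk2 (ENSRNOG00000004172, rn6 chromosome 10, 82839153 to 82852660) encodes the broadly expressed isoform. It stood at 446 and 458 in Mock and at 442 and 423 with Pdk3, again with a narrow gap of 4 between the groups. The log2 fold change was -0.06 ± 0.04 (limma adjusted p = 0.304), with a counting interval of -0.20 to 0.07. A fall the size of that of Pdk4 lies outside the counting intervals of both Pdk1 and Pdk2. Under ribosomal protein scaling, which shifts the median of all genes by -0.086 on the log2 scale, Pdk1 and Pdk2 passed as lower (-0.17 and -0.15, adjusted p = 0.0236 and 0.0206).

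**Figure D1:**
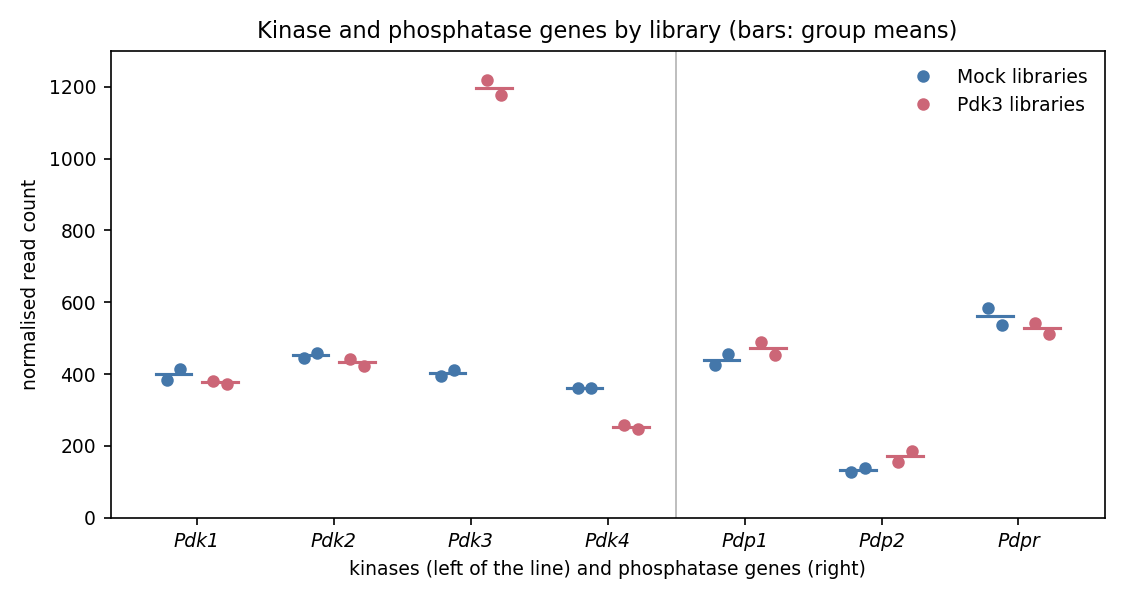
Normalised read counts (y axis) of the 4 kinase and 3 phosphatase genes in each library, blue for Mock and red for Pdk3, with short bars at the group means. Pdk3 stands at 1177 to 1218 in the Pdk3 libraries against 396 to 411 in Mock, Pdk4 is lower by 108.5 in the mean, and the groups of Pdp1 and Pdpr overlap.

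Within a library, the fall of Pdk4 was also seen against the other kinases, which removes any error of scaling between libraries. The log2 ratio of Pdk4 to Pdk2 was -0.309 and -0.347 in the Mock libraries and -0.782 in both Pdk3 libraries, a difference of -0.454. The log2 ratio of Pdk4 to Pdk1 differed by -0.437 between the groups. That of Pdk1 to Pdk2 differed by -0.017, and there the groups overlapped. With 2 libraries against 2, an exact two-sided permutation test cannot give a p below 0.333. That value was reached by both ratios of Pdk4, and by every share, sum and ratio described next unless stated.

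The make-up of the kinase reads shifted from an even split to one led by Pdk3. In the Mock libraries each kinase held between 21.9% and 28.1% of the summed kinase counts. Pdk3 took 24.97% and 25.00% of them in Mock 1 and Mock 2, and 52.98% and 53.04% in Pdk3 1 and Pdk3 2. For Pdk3 1 the 95% Wilson interval of that share was 50.8% to 55.1%, and for Mock 1 it was 22.9% to 27.1%. The share of Pdk4 went from 22.3% ± 0.566 to 11.1% ± 0.0655 (SD, n = 2 each, 0.499 of its Mock share). Those of Pdk1 and Pdk2 became 0.676 and 0.684 of their Mock shares. A larger Pdk3 count lowers every other share, and the mean counts of Pdk1 and Pdk2 themselves differed by just -5.51% and -4.31%. Transcript lengths were not used, so a share is one of reads and not of transcripts, and it gives no order of the isoforms by transcript number.

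With Pdk3 left out of the sum, the reads of the other 3 kinases were redistributed away from Pdk4. Pdk4 made up 30.25% and 29.20% of them in the Mock libraries and 23.77% and 23.61% in the Pdk3 libraries, a difference of -6.03 percentage points in the mean. The nearest Wilson intervals of single libraries, 26.8% to 31.7% in Mock 2 and 21.3% to 26.5% in Pdk3 1, did not overlap. Pdk2 gained 3.43 points, from 37.3% ± 0.236 to 40.7% ± 0.207, and Pdk1 gained 2.604 points. These gains follow from the smaller part of Pdk4, since neither gene's own count was higher.

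**Figure D2:**
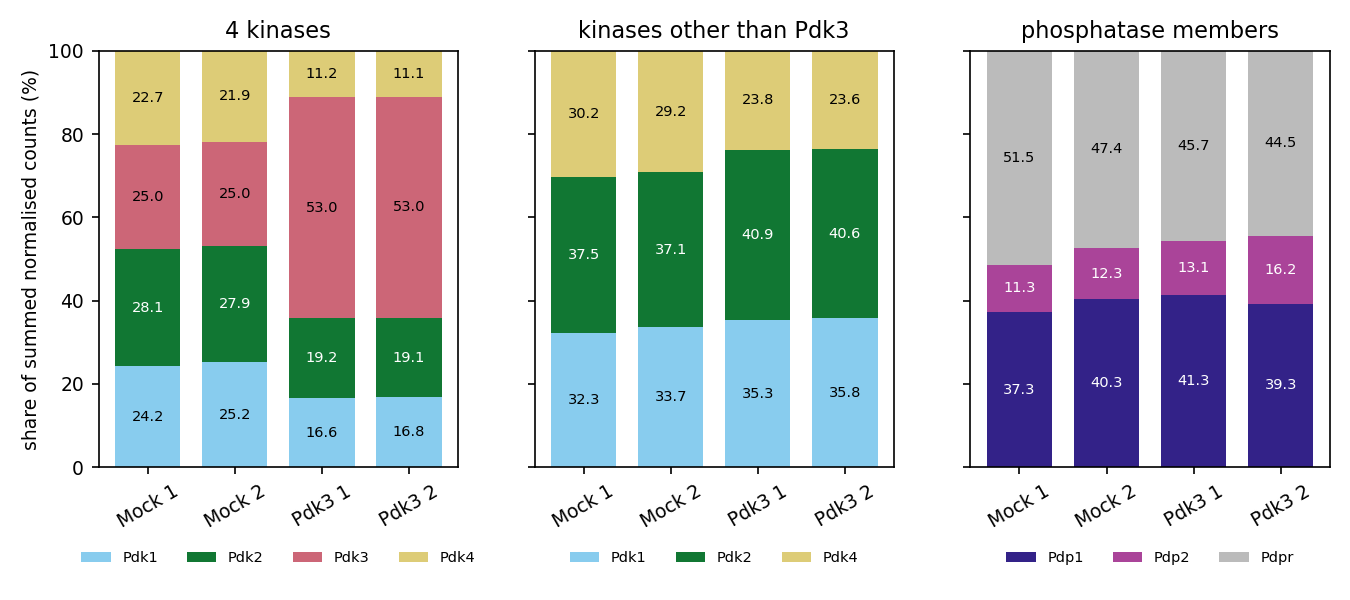
Stacked bars give each gene's share (percent, y axis) of the summed normalised counts in each library, for the 4 kinases, for the kinases other than Pdk3 and for the phosphatase members. Pdk3 makes up 25.00% or less of the kinase reads in the Mock libraries and 52.98% or more in the Pdk3 libraries, and the part of Pdk4 is smaller with Pdk3 counted or left out.

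The sum of the other kinase genes was lower, by far less than Pdk3 gained. Pdk3 gained 794 normalised counts in the mean, while Pdk1, Pdk2 and Pdk4 together lost 150, which is 18.9% of the gain. Pdk4 accounted for 72.3% of that loss (108.5 counts), Pdk1 for 22 counts and Pdk2 for 19.5. The falls of Pdk1 and Pdk2 did not pass (limma adjusted p = 0.282 and 0.304). They passed under ribosomal protein scaling, so the split of the loss is uncertain. The sum of the kinases other than Pdk3 was 1190 and 1233 in the Mock libraries and 1081 and 1042 in the Pdk3 libraries. The sum of all 4 kinases was 1586 and 1644 in Mock and 2299 and 2219 with Pdk3, 1.40 times as high.

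Pdp2 (ENSRNOG00000012343, rn6 chromosome 19, 597427 to 601469, minus strand) encodes a catalytic phosphatase subunit and was the least read member. It was counted at 128 and 139 in Mock, 155 in Pdk3 1 and 187 in Pdk3 2. The groups were 16 apart, less than the gap of the Pdk3 pair. Its group means were 133.5 ± 7.8 and 171.0 ± 22.6 (SD, n = 2 each), which is 0.35 ± 0.10 on the log2 scale (limma adjusted p = 0.0473). The call was lost with the floor at counting noise (adjusted p = 0.0616), without an intensity trend (0.163), without the filter on low values (0.155) and under ribosomal protein scaling (0.0520). With each library left out in turn the log2 fold change lay between 0.215 (without Pdk3 2) and 0.484 (without Pdk3 1).

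Pdp1 (ENSRNOG00000016180, rn6 chromosome 5, 25577451 to 25584288) encodes the calcium-stimulated catalytic subunit typical of muscle. It had 424 and 456 in Mock and 490 and 453 with Pdk3, with overlapping groups. The log2 fold change was 0.10 ± 0.05 (limma adjusted p = 0.221) and the counting interval -0.04 to 0.23.

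Pdpr (ENSRNOG00000022593, rn6 chromosome 19, 43109427 to 43149210) encodes the regulatory subunit that lowers the magnesium sensitivity of the phosphatase. Its counts of 585 and 536 in Mock and 542 and 513 with Pdk3 overlapped. The log2 fold change was -0.09 ± 0.05 (limma adjusted p = 0.255) and the counting interval -0.21 to 0.04. Under ribosomal protein scaling Pdpr passed as lower (-0.17, adjusted p = 0.0064).

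Within the phosphatase members the make-up changed less than in the kinases. Pdp2 held 11.26% and 12.29% of their summed counts in Mock and 13.06% and 16.22% with Pdk3, and most of the difference came from Pdk3 2. The share of Pdpr differed most in the mean, by -4.344 percentage points, with 51.45% and 47.39% in Mock and 45.66% and 44.49% with Pdk3, beside 2.864 points for Pdp2. The share of Pdp1 overlapped between the groups (38.8% ± 2.14 and 40.3% ± 1.41, exact permutation p = 0.667, n = 2 each). The catalytic subunits together, Pdp1 plus Pdp2, had 552 and 595 in the Mock libraries and 645 and 640 in the Pdk3 libraries.

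The balance of kinase to catalytic phosphatase reads turned on whether Pdk3 was counted. With all kinases it was 2.87 and 2.76 in the Mock libraries and 3.56 and 3.47 in the Pdk3 libraries, 1.25 times as high in the mean. With Pdk3 left out, it was 2.16 and 2.07 in Mock and 1.68 and 1.63 with Pdk3, 0.781 of the Mock value. In both cases the groups were apart by more than the gap within either pair. As lengths were not used, the ratios can be set against each other but have no meaning as a number of kinase transcripts per phosphatase transcript.

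The genes for the complex itself and for the pyruvate carrier differed little in count, with log2 fold changes of -0.04 to 0.15. Of 7 measured genes for subunits of the complex and the mitochondrial pyruvate carrier, 2 passed as higher (limma, adjusted p under 0.05) and 0 as lower, beside 11.7% and 11.3% of all genes. None of the 7 passed when floored at counting noise (15.8% of all genes) or under ribosomal protein scaling (34.8%). The median log2 fold change was 0.07. Pdhx, which anchors the E3 subunit in the complex, had 523 and 550 in Mock and 594 and 598 with Pdk3 (log2 fold change 0.15, adjusted p = 0.0226, floored 0.0702). Dlat, the E2 acetyltransferase, had 593 and 586 against 651 and 635 (0.13, adjusted p = 0.0273, floored 0.138). Pdha1, the E1 alpha subunit that the kinases phosphorylate, had 802 and 784 against 828 and 817 (0.05, adjusted p = 0.216, limma). Pdhb, Dld, Mpc1 and Mpc2 had log2 fold changes between -0.04 and 0.11.

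**Figure D3:**
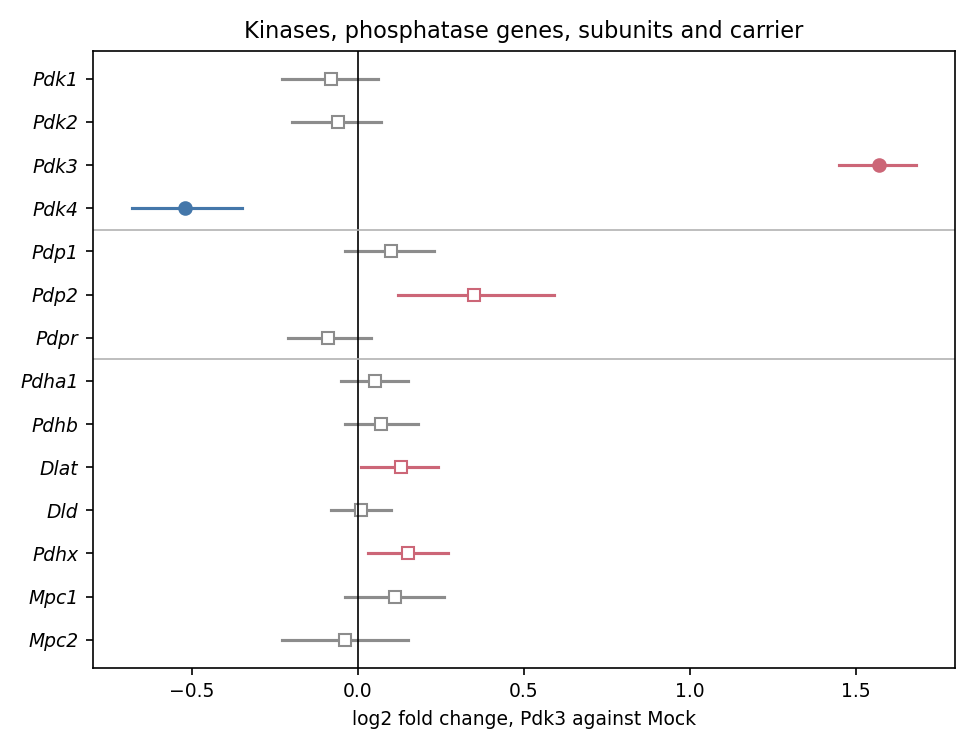
Log2 fold changes of Pdk3 against Mock (x axis) for kinases, phosphatase genes, and subunit and carrier genes, separated by grey lines, with 95% counting intervals. Red and blue mark genes that limma called higher and lower, and filled circles mark those also called with p floored at counting noise, which are Pdk3 (1.57) and Pdk4 (-0.52).

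The related enzymes of the branched-chain ketoacid dehydrogenase complex served as a comparison, as Bckdk is the sister kinase of the PDK family. Bckdk had 628 and 614 in Mock and 608 and 615 with Pdk3, and the phosphatase gene Ppm1k had 367 and 362 against 356 and 381. Neither passed (limma adjusted p = 0.652 and 0.853). Of the 5 genes measured, 1 passed as lower and 0 as higher, beside 11.3% and 11.7% of all genes. With the floor these counts were the same, beside 7.44% and 8.38%. The lower one was Bckdha, an E1 subunit gene of that complex, with 512 and 513 in Mock and 447 and 445 with Pdk3 (-0.20 on the log2 scale, limma adjusted p = 0.00586, floored 0.0209). Under ribosomal protein scaling 3 of the 5 passed as lower, beside 27.6% of all genes.

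Genes that supply the cofactors lipoate and thiamine had 0 of 7 members past the threshold in limma (0 also when floored at counting noise), beside 22.9% of all genes, with log2 fold changes of -0.14 for the lipoate synthase gene Lias to 0.11. The thiamine transporter gene Slc19a2 had 255 and 266 in Mock and 266 and 244 with Pdk3. Among 11 genes of lactate and pyruvate exchange 1 passed, also beside 22.9% of all genes. This was Slc16a3, an exporter of lactate, which rose and had 617 and 627 in Mock against 703 and 719 with Pdk3 (0.19 on the log2 scale, limma adjusted p = 0.00418). The lactate dehydrogenase genes Ldha and Ldhb had log2 fold changes of 0.08 and 0.09 (adjusted p = 0.190 and 0.0655). Ribosomal protein scaling gave 1 cofactor gene as lower, and 1 exchange gene as higher and 2 as lower. Over all genes it gave 27.6% as lower and 7.21% as higher.

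Pdk4 is a textbook target of PPAR receptors, of FoxO factors and of glucocorticoids, and Pdk1 of HIF-1. Of 17 measured genes for such factors and their partners, 8 fell and 1 rose, against 11.3% and 11.7% of all genes tested, with a median log2 fold change of -0.16. Floored at counting noise, 7 fell and 0 rose (7.44% and 8.38% of all genes). Under ribosomal protein scaling 12 fell and 0 rose (27.6% and 7.21% of all genes). The glucocorticoid receptor gene Nr3c1 had no row under its symbol, so the 17 do not include it. Foxo4 had 661 and 657 in the Mock libraries and 514 and 526 in the Pdk3 libraries (log2 fold change -0.34, limma adjusted p = 0.000369). Epas1, which encodes HIF-2 alpha, had 750 and 721 against 557 and 500 (-0.48, adjusted p = 0.000749). Arnt, the partner of the HIF factors, fell by 0.24 on the log2 scale. Ppargc1a, a coactivator of PPAR receptors, was the one higher (0.15, adjusted p = 0.0205, floored 0.103). Ppara had 116 and 129 in Mock and 121 and 99 with Pdk3, with overlapping groups.

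PPAR target genes that passed were lower, as Pdk4 was. Of 17 tested, 9 fell and 0 rose, beside 11.3% and 11.7% of all genes, with a median of -0.12. Floored at counting noise 8 fell, beside 7.44% of all genes, and under ribosomal protein scaling 14 fell, beside 27.6%. Angptl4, an inhibitor of lipoprotein lipase, had 164 and 177 in Mock against 64 and 70 with Pdk3 (-1.33 ± 0.10 on the log2(value + 1) scale, limma adjusted p = 0.000122). Cpt1a, the carnitine palmitoyltransferase of the outer mitochondrial membrane, had 1137 and 1105 against 926 and 913 (-0.29 ± 0.03). Mlycd, the malonyl-CoA decarboxylase gene, had 475 and 479 against 397 and 394 (-0.27 ± 0.04, limma adjusted p = 0.00213). Besides Angptl4, Plin5, a lipid droplet protein gene, fell by more than Pdk4 (51 and 62 against 37 and 28, -0.79, adjusted p = 0.0237), and members such as Plin2 (563 and 581 against 598 and 589) did not pass.

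FoxO and glucocorticoid target genes had 11 of 16 lower and 1 higher, beside 11.3% and 11.7% of all genes, with a median of -0.17. The list pools FoxO targets with glucocorticoid targets, so its counts describe neither kind alone. Floored at counting noise 8 were lower and 1 higher, beside 7.44% and 8.38% of all genes. Under ribosomal protein scaling 14 were lower and 1 higher, beside 27.6% and 7.21%. Bcl6, a transcriptional repressor, fell, with 660 and 635 in Mock and 429 and 426 with Pdk3 (-0.60 ± 0.04 on the log2 scale). Fbxo32, the muscle ubiquitin ligase atrogin-1, fell by 0.37 and Pik3ip1, an inhibitor of PI3-kinase, by 0.49 on the log2 scale. Fkbp5, a co-chaperone induced by glucocorticoids, moved the other way, from 349 and 334 to 426 and 474 (0.40, adjusted p = 0.00293). Other glucocorticoid targets of the list did not follow it. Zbtb16 (-0.49, limma adjusted p = 0.00468) and Tsc22d3 (-0.17, limma adjusted p = 0.0222, floored 0.111) were lower. Per1 (0.10, limma adjusted p = 0.0698) did not pass. Among 18 HIF target genes, 3 rose and 2 fell, near the shares of 11.7% and 11.3% over all genes, with a median of 0.06. These were P4ha1 (0.28), the glucose transporter gene Slc2a1 (0.20) and Egln3 (0.13, floored adjusted p = 0.0782) as higher, and Mxi1 (-0.40) and Bhlhe40 (-0.27) as lower. Ribosomal protein scaling turned the split to 2 higher and 5 lower, beside 7.21% and 27.6% of all genes.

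**Figure D4:**
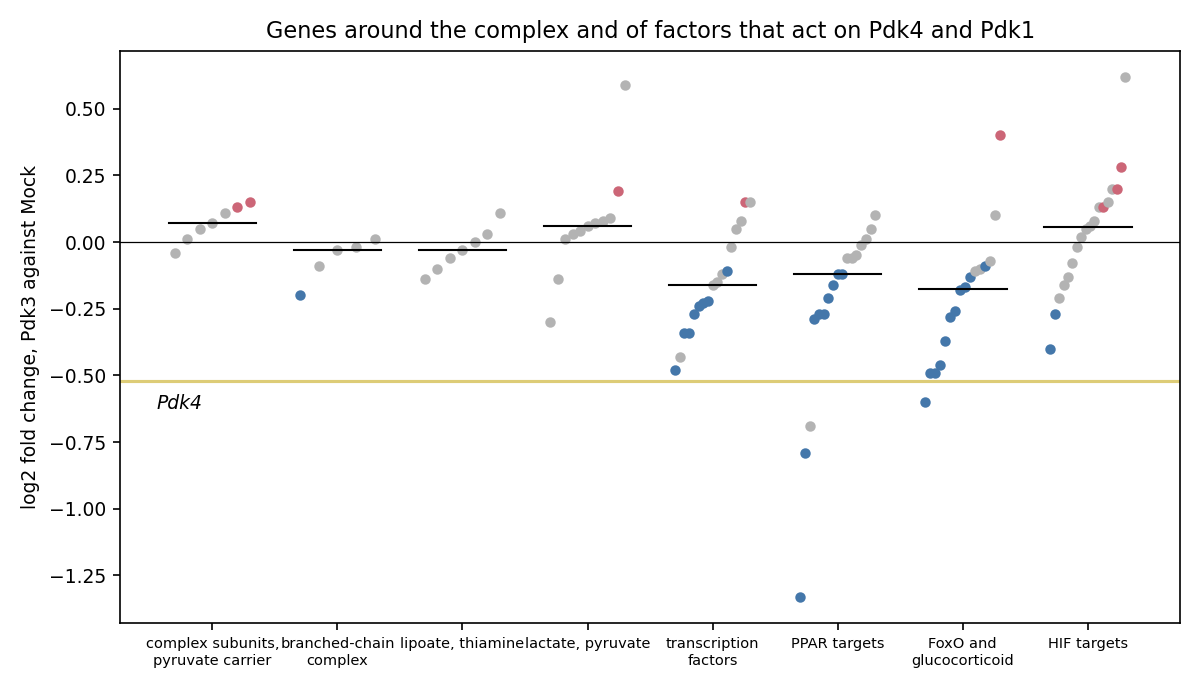
Log2 fold changes of Pdk3 against Mock (y axis), 1 point per tested gene, in 8 lists of genes around the complex and of factors that act on Pdk4 and Pdk1. Red and blue points are genes limma called higher and lower, black bars are list medians and the yellow line is Pdk4 at -0.52, and the lowest point is Angptl4 at -1.33.

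In these bulk libraries, fewer cells of a type and less RNA per cell cannot be told apart, and some markers of other cell types were lower in the same libraries as Pdk4. Their counts stand beside 11.3% of all genes called lower and 11.7% called higher. Macrophage and leukocyte markers were lower in 5 of 9 (summed normalised count 1610 to 1688 in Mock and 1337 to 1398 with Pdk3), endothelial markers in 2 of 8 (1134 to 1197 and 1054 to 1093) and mesothelial markers in 2 of 6 (433 to 443 and 356 to 364). Fibroblast markers were lower in 1 of 9 (5504 to 5610 and 5370 to 5501) and erythroid markers in 1 of 3 (68 to 73 and 34 to 39). Smooth muscle and pericyte markers were higher in 5 and lower in 1 of 10 (8826 to 8906 and 9287 to 9407), and cardiomyocyte markers higher in 6 and lower in 1 of 11. The smooth muscle and pericyte list holds Abcc9, which was the lower one, and Des, which was among the higher. Heart muscle cells express both, so the counts of that list do not describe smooth muscle and pericytes alone. The fibroblast count is near the share over all genes. Floored at counting noise, cardiomyocyte markers were higher in 4, and no other count changed, beside 8.38% of all genes higher and 7.44% lower. Under ribosomal protein scaling, beside 27.6% of all genes lower and 7.21% higher, macrophage and leukocyte markers were lower in 7, endothelial in 3, mesothelial in 2, fibroblast in 5 and erythroid in 2. Smooth muscle and pericyte markers were then higher in 4 and lower in 2, and cardiomyocyte markers higher in 0 and lower in 1. In each of these lists 0 of the listed markers with a row were at 0 in all libraries. Their part in the changes of the kinase genes was not tested.

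The genes most like the changing members were found by the distance between log2(value + 1) profiles over the 4 libraries, each centred on its mean, among 10118 named genes with a mean of at least 50. Nearest to Pdk3 were Rad51ap1 (81 and 85 in Mock, 244 and 233 with Pdk3, distance 0.058), Brip1 (0.069) and Timeless (0.081). Nearest to Pdk4 were Fam53b (497 and 484 in Mock, 348 and 337 with Pdk3, distance 0.029), Oplah and Tpd52l1 (0.036 each). Nearest to Pdp2 was Gja3, a connexin gene, with 105 and 114 in Mock and 129 and 155 with Pdk3 (distance 0.018), then Nxt1 and Sowahc (0.047 each). With 4 libraries in 2 groups, such likeness rests mainly on the size of the difference between the groups. For Pdk3 that difference includes reads from the vector, so likeness to it is no likeness to a response of the cells' own Pdk3 gene.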

How the data were processed

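RNA-seq libraries of 2 Mock and 2 Pdk3 samples were compared. Tools listed in the submitters' processing notes are Trimmomatic 0.39 and FastQC for reads, STAR 2.6.1d, Subread's featureCounts 1.6.5 and DESeq2 1.26.0, with build rn6. Their settings, including those for strand, duplicate reads and low genes, were not stated in any label used here. The deposited values are used as a score: counts per gene, normalised by the authors and rounded to whole numbers. No exonic lengths were used.

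Values were tested with limma 3.58.1 (R 4.3.3) on log2(value + 1), with an intensity trend, for genes with at least 10 in at least 2 libraries, two-sided, with Benjamini-Hochberg adjustment over 12838 genes and 0.05 as the threshold. Fold changes are on that scale, which understates low genes. Errors of fold changes are standard errors with 2 residual and 5.56 prior degrees of freedom. Scaling factors (0.9246 to 1.0566) were estimated from skipped and doubled whole numbers, to return values to reads for counting intervals. Without molecular identifiers reads need not be independent molecules, so intervals cover counting error only. The scaling factor estimate and the limma calls were tested on reads simulated with counting noise. That is a wider spread than the one within the real pairs.

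The members and the 17 gene lists were chosen with earlier results of these data known. Named are the members, the complex subunits and carriers, up to 3 called genes in the majority direction and 2 in the other per list by smallest p (2 of highest mean where none passed), the 3 nearest patterns to Pdk3, Pdk4 and Pdp2, and neighbours of Pdk3 within 500 kb. Bckdk, Ppm1k, Ldha, Ldhb, Ppara, Plin2, Plin5, Zbtb16, Tsc22d3, Per1 and Des are named outside this rule, after their values were seen. Listed genes without a row under their symbol were not analysed here. 1 listed gene was taken out of its list after the tests, for a reason unrelated to its value, and is not reported here; list counts are over the remaining genes.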

Additional observations from a re-analysis of the deposited data

How the results depend on the processing

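The directions of Pdk3, Pdk4 and Pdp2 held under every alternative run, and Pdk3 and Pdk4 passed in all but the limma fits with a library left out. With any 1 library left out, limma has 1 residual degree of freedom, assumes that the lone library varies like the others, and called 0 genes higher, 0 lower and 0 members. Unadjusted, 2916 to 3347 genes were under 0.05. There Pdk3 had log2 fold changes of 1.54 to 1.59 and Pdk4 of -0.55 to -0.48 (adjusted p = 0.149 to 0.173 for both by limma). In tests with counting noise alone, chosen after seeing the data, Pdk4 passed without any 1 library (highest adjusted p = 0.000122), and Pdp2 was lost without Mock 1 (0.201) and without Pdk3 2 (0.455). Without Mock 1, Mock 2, Pdk3 1 and Pdk3 2 in turn, these tests called 778, 845, 808 and 795 genes higher and 641, 753, 626 and 602 lower. Pdp2 was also lost without a filter on low values (limma adjusted p = 0.155), without an intensity trend (0.163) and when the median ribosomal protein gene was set level (0.0520). Genes called higher and lower numbered 1496 and 1449, and 737 and 539 without a filter, 526 and 325 without a trend, 1076 and 955 floored at counting noise, and 926 and 3539 with ribosomal protein genes level. That last scaling shifted the median of all genes by -0.086. Under it 5 members passed, beside 34.8% of all genes, with Pdk1 (-0.17), Pdk2 (-0.15) and Pdpr (-0.17) added as lower. The sum of the kinases other than Pdk3 then differed by -0.278 on the log2 scale in place of -0.191. This scaling also turned the signs of Pdha1 (-0.034), Pdhb (-0.016), Dld (-0.075), Eif2s3 (-0.044), Ppm1k (-0.071), Ldha (-0.008) and Plin2 (-0.033), none of them called. With a library left out in turn, the sign turned for Dld (-0.003 to 0.025), Slc19a2 (-0.094 to 0.030), Zfx (-0.075 to 0.008) and Ppm1k (-0.034 to 0.064).

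Left out in turn, the libraries gave differences of 28.0 to 28.1 percentage points for the share of Pdk3, -6.56 to -5.51 for that of Pdk4 without Pdk3 (1.91 to 3.30 for Pdk1, 3.26 to 3.60 for Pdk2), -0.0336 to 2.99 for Pdp1, 1.28 to 4.44 for Pdp2 and -6.37 to -2.31 for Pdpr. The share of Pdp1 turned sign without Mock 1. The replicate numbers share no stated origin, and deviations of same-numbered libraries correlated at 0.038. With the replicate block, 3 members passed, Pdp2 with an adjusted p of 0.0278, and no call of a member changed. Shares per exonic length were not run.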
